A study of Homo sapiens with 26 samples.

Results

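The genes described here encode plasma proteins made by hepatocytes: carriers of hormones, metals and vitamins, coagulation factors, protease inhibitors, complement components, and a small group of fetuin, adhesion and hormone-precursor proteins. They were read in Huh7 cells, a line from a human hepatocellular carcinoma, that were given PF-06446846, a small molecule that stalls the human ribosome on selected nascent chains. The rule was a list of gene names and used no measured value. Of the 33 genes it names, 28 were found among the 12325 transcripts of the codon tables. ALB, FETUB, PLG, ITIH1 and ITIH3 were not analysed here. SERPINA3 stood on 2 identifiers whose reads differed by at most 3 in any library and was counted as 1 gene.

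Hepatocytes release most of the protein of blood plasma. Each of these proteins begins with a signal peptide, a hydrophobic and often leucine-rich stretch that directs the ribosome to the endoplasmic reticulum and is then cut off. Fibrinogen, built from the products of FGA, FGB and FGG, is cut by thrombin, the product of F2, to form a clot. AFP encodes alpha-fetoprotein, the fetal counterpart of albumin, which hepatoma lines often make in large amounts.

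Ribosome profiling (ribo-seq), which sequences the mRNA fragments that ribosomes protect, gave 22 libraries, and mRNA sequencing (mRNA-seq) gave 4. In study 1, cells received 1.5 or 0.3 µM PF-06446846 or the vehicle DMSO for 10 or 60 min, with 3 libraries per group. In study 2, cells received 1.5 µM or vehicle for 60 min, with 2 libraries per group in each assay, numbered replicates 4 and 5. All cells were lysed in cycloheximide, a drug that holds ribosomes in place.

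Coding sequences held 6414227 to 22224137 footprints per ribo-seq library and 15227654 to 22036358 reads per mRNA-seq library. Of 12 hepatocyte regulators, 11 were in the tables, at 15.8 to 168 CPM per kb of coding sequence (CPM, counts scaled to a library total of 1000000) in the vehicle libraries of study 1. Of 14 markers of other liver cells, 6 were in the tables. The endothelial marker STAB2 had no reads and the stellate cell marker DCN had 0 to 2 per library of study 1, whereas the bile duct markers SOX9 and EPCAM stood at 157 and 118 CPM per kb, the macrophage marker CD68 at 45.7, and the endothelial marker PECAM1 at 7.50.

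The first 50 codons of FGA, AMBP and RBP4 are printed because these early stretches held codons called higher with 1.5 µM PF-06446846 in both studies. Of these, FGA 11, 13 and 22 (both studies) and AMBP 17 (10 min) had a mean under 10 vehicle reads. They were tested only through the compound libraries and had to differ. Capitals mark the codons called higher at 10 min of study 1 or in study 2 in a fit of single codons described with the results. All sequences are spliced coding sequence of the transcript's own strand, taken from GRCh38 with GENCODE release 44, and all transcripts shown lie on the minus strand. The FGA stretch spans exons 1 and 2 at chr4:154589467-154590687. The AMBP stretch spans exons 1 and 2 at chr9:114076708-114078209. The RBP4 stretch spans exons 2 and 3 at chr10:93600765-93601028.
FGA codons 1 to 50: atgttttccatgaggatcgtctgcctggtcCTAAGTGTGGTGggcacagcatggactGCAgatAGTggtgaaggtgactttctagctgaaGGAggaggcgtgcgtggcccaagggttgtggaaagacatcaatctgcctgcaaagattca
AMBP codons 1 to 50: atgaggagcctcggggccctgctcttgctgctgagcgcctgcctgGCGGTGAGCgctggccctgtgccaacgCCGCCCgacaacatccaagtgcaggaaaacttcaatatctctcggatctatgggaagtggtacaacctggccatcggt
RBP4 codons 1 to 50: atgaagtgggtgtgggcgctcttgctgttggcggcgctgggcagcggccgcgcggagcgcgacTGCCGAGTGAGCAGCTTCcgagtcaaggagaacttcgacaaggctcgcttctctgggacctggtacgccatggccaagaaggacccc

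Stretches inside C3 are shown for the same reason, with the same meaning of the capitals, since these codons lay far from the start. In study 2, C3 codon 1386 was likewise tested only through the compound libraries. C3 codons 1371 to 1390 span exons 32 and 33 at chr19:6684390-6684569. C3 codons 897 to 911 lie in exon 21 at chr19:6697407-6697451.
C3 codons 1371 to 1390: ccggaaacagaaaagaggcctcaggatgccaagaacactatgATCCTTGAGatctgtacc
C3 codons 897 to 911: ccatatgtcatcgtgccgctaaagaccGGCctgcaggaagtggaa

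Most of the plasma protein genes were heavily translated in these cells, with 17 of the 28 in the top 10% of transcripts. Together they held 2.47 to 3.58% of all footprints over the 22 ribo-seq libraries (median 2.82%) and 1.39 to 1.58% of the reads over the 4 mRNA-seq libraries. AFP alone held 0.888 to 1.49% of footprints and 0.270 to 0.296% of mRNA reads. In the 6 vehicle libraries of study 1, 3 members ranked in the top 1% of transcripts by CPM per kb, and 4 fell below the median of all transcripts, 14.8 CPM per kb.

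Levels per kb spanned 2275-fold. AFP led at 6070 ± 816 CPM per kb (mean ± SD, n = 6, as for the other levels of this order). RBP4, the plasma carrier of retinol, followed at 2622 ± 315. SERPINA1, the main inhibitor of neutrophil elastase, stood at 2315 ± 316. AMBP, the precursor of alpha-1-microglobulin and of the inhibitor bikunin, stood at 1684 ± 158, and TF, the iron carrier transferrin, at 1078 ± 179. VTN, the adhesion protein vitronectin, was next with 895 ± 121. The lowest levels were those of A2M (9.29), a broad protease trap, CP (9.12), the copper-carrying ceruloplasmin, CFB (4.23), a protease of the alternative complement pathway, and SERPING1 (2.67), the inhibitor of complement C1.

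By role, the other carriers were TTR, which binds thyroxine and RBP4, at 465 CPM per kb, GC, the vitamin D carrier, at 200, SERPINA6, the cortisol carrier, at 29.9, and HPX, the heme carrier, at 18.8. The fibrinogen chains stood at 646 (FGB), 268 (FGA) and 268 (FGG), prothrombin F2 at 227, the kininogen KNG1 at 57.0, and the coagulation cofactor F5 at 38.4. Among inhibitors, ITIH2, a heavy chain that binds hyaluronan, stood at 641, the thrombin inhibitors SERPIND1 and SERPINC1 at 165 and 51.7, and SERPINA3, an inhibitor of chymotrypsin-like proteases, at 37.4. Complement C3 stood at 380 and C5 at 39.2, the angiotensin precursor AGT at 398 and the fetuin AHSG at 322. Of the 27 pairs of neighbours in this order, 20 overlapped in the range of their 6 libraries. The 7 that did not were the steps below AFP, SERPINA1, AMBP, VTN, SERPIND1, SERPINA6 and HPX.

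**Figure D1:**
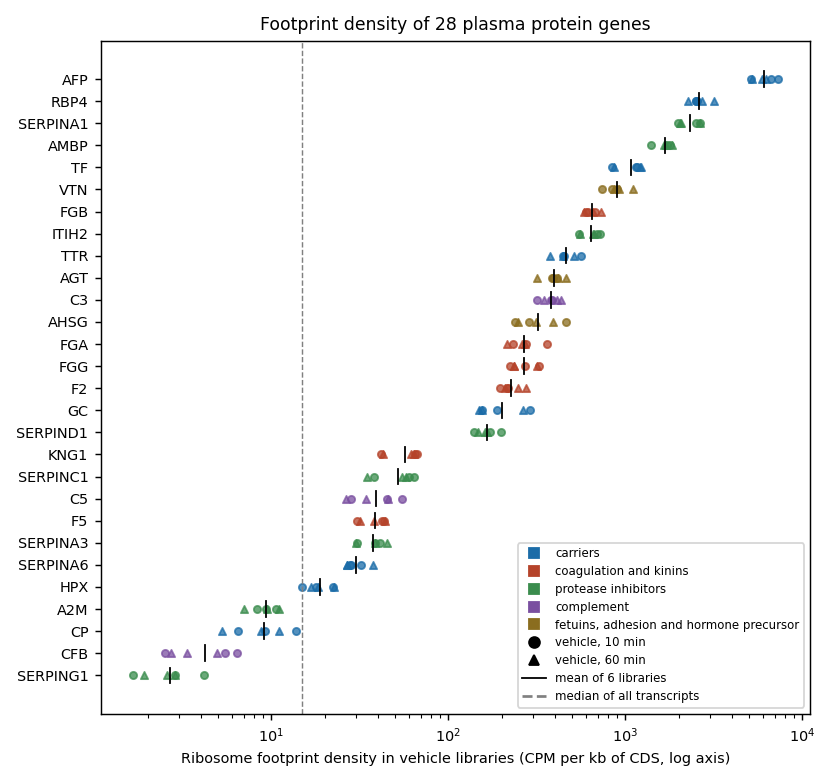
Footprint density (CPM per kb, log axis) of the 28 plasma protein genes in the 6 vehicle ribo-seq libraries of study 1, ordered by mean, with circles for 10 min, triangles for 60 min, colours for roles, a short line at each mean and a dashed line at the median of all transcripts (14.8). AFP (6070) stands apart from RBP4 (2622) at the top, and SERPING1 (2.67) is lowest.

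Translational efficiency (TE), the ratio of a gene's ribo-seq CPM to its mRNA-seq CPM, was read in the vehicle libraries of study 2 (n = 2). The members' median TE was 1.27 beside 0.917 for all 10956 transcripts with enough reads, whose middle 50% ran from 0.540 to 1.52. Of the 28 members, 26 lay above the median of all and 12 above the upper quartile. TE exceeded 1 in both replicates for 21 members and was under 1 in both for 1.

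The coagulation and kinin genes had the highest median TE of the roles, 2.16, with FGB at 3.38, FGG at 2.44, FGA at 2.18, KNG1 at 2.14, F5 at 2.09 and F2 at 1.07. The carriers' median was 1.23. CP reached 5.26 on few mRNA reads, AFP 3.49 and GC 2.56, while TTR (1.12), RBP4 (1.09), HPX (1.01) and SERPINA6 (0.958) lay near 1. For AFP the replicates gave 3.49 and 3.50, so its excess of footprints over mRNA was steady between them. The inhibitors' median was 1.27, led by ITIH2 at 3.03 and ending with SERPING1 at 0.869. Complement C5 stood at 4.93, C3 at 0.992 and CFB at 0.853. VTN (1.03), AGT (1.02) and AHSG (1.16) lay close together.

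**Figure D2:**
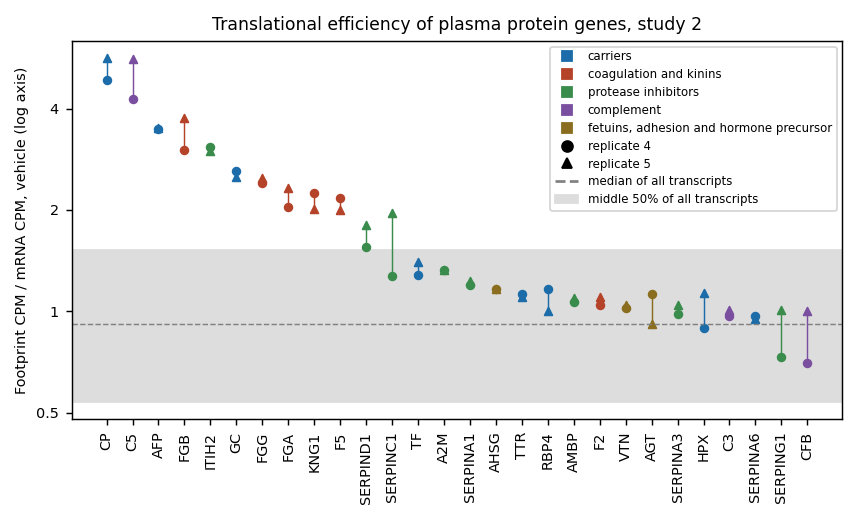
Translational efficiency (ribo-seq CPM over mRNA-seq CPM, log axis) of each member in the vehicle libraries of study 2, ordered by mean, with a circle for replicate 4, a triangle for replicate 5, colours for roles, and the median (0.917, dashed) and middle 50% (grey) of all transcripts. CP (5.26), C5 (4.93) and AFP (3.49) are highest, and most members lie above the dashed line.

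The study's main question was which proteins lose or gain ribosomes under the compound. Summed over the whole coding sequence, the 28 plasma protein genes were compared by edgeR's quasi-likelihood test (false discovery rate, FDR, 0.1 over all transcripts). These fits did not match libraries by replicate number. None of the genes passed the threshold in any of 9 comparisons, nor by DESeq2 (which called 0 to 4.31% of all transcripts). The share of all transcripts called by edgeR was 0.851% for 1.5 µM against vehicle at 10 min, 0.0726% at 60 min and 0.115% in study 2 ribo-seq. It was 0% for 0.3 µM at either time, for study 2 mRNA-seq, for vehicle at 60 against 10 min and for the difference of the 1.5 µM effect between the times, and 0.0339% for the change in TE. The count at 10 min hung on vehicle replicate 3: without it 6 members passed, with RBP4 higher and AFP, FGA, CP, C5 and ITIH2 lower, beside 14.9% of all transcripts. Without compound replicate 5 of study 2, AHSG and GC passed there as lower, beside 1.14% of all, in a fit that assumes the lone compound library to vary like the 2 vehicle libraries. At an unadjusted p under 0.05, 5 members passed at 10 min (beside 17.7% of all transcripts), 1 in study 2 ribo-seq (beside 2.97%) and 0 in each of the other 7 (beside 0.871 to 6.93%). With the replicate number as a block, VTN (higher), FGA and CP (lower) passed at 10 min, beside 10.8% of all transcripts. FGG and FGA (lower) passed so in study 2 ribo-seq, beside 1.15%, and no member at 60 min, beside 0.463%.

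AFP, the most translated member, stood at 7259, 6645 and 5154 CPM per kb in the vehicle libraries at 10 min and at 6034, 5210 and 5270 with 1.5 µM. At 60 min AFP had 6212, 5921 and 5230 with vehicle and 7549, 5055 and 5180 with compound. The groups overlapped at both times. The log2 fold change was -0.20 (interval of 2 SE, -0.47 to 0.06) at 10 min, 0.03 (-0.29 to 0.35) at 60 min and -0.05 (-0.16 to 0.07) in study 2. AFP mRNA was 1519 and 1551 CPM per kb with vehicle against 1433 and 1592 with compound.

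RBP4 was somewhat denser with compound in study 1. Its vehicle libraries at 10 min had 2523, 2504 and 2561 CPM per kb and its 1.5 µM libraries 3212, 3246 and 2765, with no overlap. At 60 min RBP4 gave 2249, 3191 and 2706 against 2505, 3901 and 3227. The groups overlapped there, though each compound library stood above the vehicle library of its number. In study 2 RBP4 gave 2212 and 2279 against 2238 and 2330. The log2 fold changes were 0.28 at 10 min (SE 0.10, edgeR adjusted p = 0.196), 0.24 at 60 min (SE 0.17) and 0.03 in study 2, none past the threshold.

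In summed level, SERPINA1, AMBP and TF overlapped their vehicle libraries at both times of study 1. SERPINA1 had 2517, 2652 and 1987 CPM per kb with vehicle at 10 min and 2613, 2423 and 2130 with 1.5 µM. AMBP had 1789, 1394 and 1717 against 1901, 1655 and 1615, and TF 1173, 1148 and 838 against 1120, 1185 and 856. The groups of all 3 genes overlapped. Their log2 fold changes were 0.00 (-0.25 to 0.26), 0.08 (-0.16 to 0.32) and 0.00 (-0.29 to 0.30) in that order at 10 min. At 60 min SERPINA1 gave 2063, 2630 and 2041 against 2575, 2282 and 2039, AMBP 1847, 1650 and 1705 against 1703, 1646 and 1813, and TF 1231, 1215 and 864 against 1124, 1181 and 858, again overlapping. In study 2 the widest interval of the 3 was that of TF, -0.29 to 0.22.

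At the edges of the 10 min comparison stood CP and VTN. CP had 9.28, 13.9 and 6.47 CPM per kb with vehicle and 6.67, 8.66 and 4.90 with 1.5 µM, a log2 fold change of -0.56 (SE 0.24, edgeR adjusted p = 0.261). VTN had 900, 740 and 838 against 1159, 1021 and 887, a log2 fold change of 0.31 (SE 0.12, adjusted p = 0.218). The groups of both genes overlapped. Without each library in turn the log2 fold change of CP ran from -0.79 (without compound replicate 2) to -0.24 (without vehicle replicate 2), and that of VTN from 0.21 to 0.40. VTN was also the highest of the well-read members in study 2, with 1171 and 1124 against 1235 and 1139 and a log2 fold change of 0.05 (SE 0.06, edgeR adjusted p = 0.999).

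FGA had the lowest fold change among well-read members at 60 min. Its vehicle libraries gave 261, 270 and 215 CPM per kb and its 1.5 µM libraries 244, 234 and 189, a log2 fold change of -0.17 (-0.44 to 0.11). Each compound library lay below the vehicle library of its number. At 10 min FGA gave 274, 359 and 231 against 217, 259 and 204, a log2 fold change of -0.34 (-0.64 to -0.05, edgeR adjusted p = 0.256) that ran from -0.48 (without vehicle replicate 3) to -0.16 (without vehicle replicate 2), and in study 2 it gave 267 and 299 against 246 and 265.

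The lowest member of study 2 ribo-seq was SERPINA6, at 27.5 and 24.8 CPM per kb with vehicle against 20.2 and 23.3 (log2 fold change -0.27, SE 0.12, edgeR adjusted p = 0.999). In mRNA-seq the lowest was SERPING1, at 3.65 and 3.47 against 2.39 and 3.08 (log2 -0.39, SE 0.30), and the highest C5, at 11.2 and 8.97 against 10.1 and 12.9 (log2 0.19, SE 0.15). The members' median log2 fold change was -0.08 at 10 min, -0.02 at 60 min, -0.07 in study 2 ribo-seq and -0.07 in mRNA-seq, where the medians of all transcripts were 0.01, -0.00, 0.00 and -0.00. In study 2, 24 of 28 members lay below 0 in ribo-seq and 21 in mRNA-seq. In the change of TE the extremes were FGG and FGA, both at -0.24, and SERPING1 at 0.29, and the members' median was 0.02.

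The place of the footprints along the coding sequence was read next. Codons 1 to 50 were set against the rest of each coding sequence in 1 edgeR model, relative to all transcripts. At 10 min with 1.5 µM, 5 of 28 members passed, beside 4.15% of all transcripts: FGA, F5, AGT and F2 rose on codons 1 to 50 and ITIH2 fell. The members' median log2 change was -0.00 and that of all transcripts -0.02. When both parts of a coding sequence shared the library total, 8 members passed at 10 min, 7 of them higher, with a median of 0.29 over members and 0.27 over all transcripts, of which 9.11% were called.

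FGA, the alpha chain of fibrinogen, had the largest rise of the 5. Its transcript spans chr4:154585275-154590742 on the minus strand of GRCh38 and has 645 codons. F5 (chr1:169511951-169586481, minus strand, 2225 codons), AGT (chr1:230702523-230714122, minus strand, 486 codons), F2 (chr11:46719213-46739506, plus strand, 623 codons) and ITIH2 (chr10:7703316-7749520, plus strand, 947 codons) are placed on the same build. Codons 1 to 50 held 5.27, 4.35 and 7.95% of FGA footprints with vehicle at 10 min and 15.9, 19.4 and 16.5% with 1.5 µM. The groups were far apart, and the log2 change relative to the rest was 1.51 (SE 0.19, edgeR adjusted p = 2.28e-06). At 60 min the vehicle libraries had 9.10, 9.80 and 8.43% and the compound libraries 8.66, 18.3 and 15.5%. Replicate 1 of the compound stayed at the vehicle level and the other two stood above it. The log2 change of 0.65 (SE 0.26) did not pass, and 0 members did at 60 min by edgeR, beside 0.282% of all transcripts, with 1 member at an unadjusted p under 0.05 (beside 4.33%). Same-numbered replicates deviated together at 60 min, and with the replicate as a block FGA passed (0.65, SE 0.17, adjusted p = 0.035), beside 0.953% of all transcripts. It also passed without replicate 1 of the compound (1.01, edgeR adjusted p = 0.025), beside 0.282% of all.

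In study 2 FGA was the 1 member that passed, beside 0.447% of all transcripts. Its early share was 6.35 and 6.51% with vehicle and 10.4 and 8.98% with 1.5 µM, a log2 change of 0.60 (SE 0.13, edgeR adjusted p = 0.0024). This call was lost without compound replicate 4 (0.48, adjusted p = 0.330) or vehicle replicate 5 (0.55, adjusted p = 0.310). FGA mRNA showed no such shift, with 6.75 and 7.25% against 7.72 and 6.70% (log2 0.07), and 0 members passed in mRNA-seq, beside 0% of all transcripts and with 1 at an unadjusted p under 0.05 (beside 2.63%). At 0.3 µM the FGA shares were 4.76, 14.95 and 10.8% at 10 min and 5.79, 12.7 and 12.5% at 60 min. At 10 min replicate 1 lay within the vehicle range and the other two between it and the 1.5 µM range, and at 60 min replicate 1 lay below the vehicle range and the other two above it. At that dose 0 members passed by edgeR, beside 0.0287% and 0.00976% of all transcripts, and 1 and 0 had an unadjusted p under 0.05 (beside 2.43% and 2.71%).

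F5, AGT and F2 moved less and only just passed at 10 min. F5, a long cofactor of thrombin formation, had 1.77, 1.50 and 2.45% with vehicle and 4.67, 4.02 and 2.56% with 1.5 µM (log2 0.73, SE 0.24, edgeR adjusted p = 0.098). AGT had 5.04, 5.13 and 6.72% against 11.8, 10.8 and 7.61% (0.62, SE 0.18, adjusted p = 0.057). F2 had 4.22, 3.74 and 4.14% against 7.81, 8.15 and 5.89% (0.61, SE 0.18, adjusted p = 0.071). In each gene compound replicate 3 was the lowest of its group. None of the 3 kept its call when compound replicate 1, compound replicate 2 or vehicle replicate 2 was left out, when FGA and ITIH2 kept theirs (2 calls, beside 1.54%, 1.55% and 1.69% of all transcripts in that order). Without vehicle replicate 1, FGA, ITIH2 and F2 kept theirs, beside 2.95%.

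ITIH2 went the other way. Its codons 1 to 50 held 2.26, 3.65 and 2.65% with vehicle at 10 min and 1.63, 1.64 and 1.62% with 1.5 µM, with no overlap. The log2 change was -1.08 (SE 0.17, edgeR adjusted p = 7.7e-05), and it passed whichever library was left out. At 60 min ITIH2 had 2.78, 1.38 and 1.57% with vehicle and 2.68, 1.50 and 1.25% with compound, which overlapped. The difference of its effect between the times was 1.02 on the log2 scale (edgeR adjusted p = 0.572), and 0 members passed in that comparison, beside 0% of all transcripts and with 2 at an unadjusted p under 0.05 (beside 7.21%).

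Over all members, the early share of the 1.5 µM libraries lay wholly above that of vehicle for 13 genes at 10 min (beside 21.5% of all transcripts), wholly below for 1, ITIH2 (beside 3.26%), and overlapped for 14. At 60 min it lay above for FGG and VTN (beside 5.45%), below for 0 (beside 4.08%), and overlapped for 26. In study 2, with 2 libraries a group, it lay above for 9 (beside 18.7%), below for 4 (beside 13.5%) and overlapped for 15. These raw shares were not taken relative to all transcripts. In the model that was, the median log2 change at 10 min was -0.00 over members and -0.02 over all. Whether the members' read depth bears on these counts was not tested. In vehicle libraries of study 1 the density of footprints on codons 1 to 50, relative to the density on the rest, had a median of 0.731 over members and 0.583 over all transcripts, from 0.331 in GC to 1.34 in C5. In study 2 vehicle mRNA-seq the medians were 0.899 and 0.898.

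**Figure D3:**
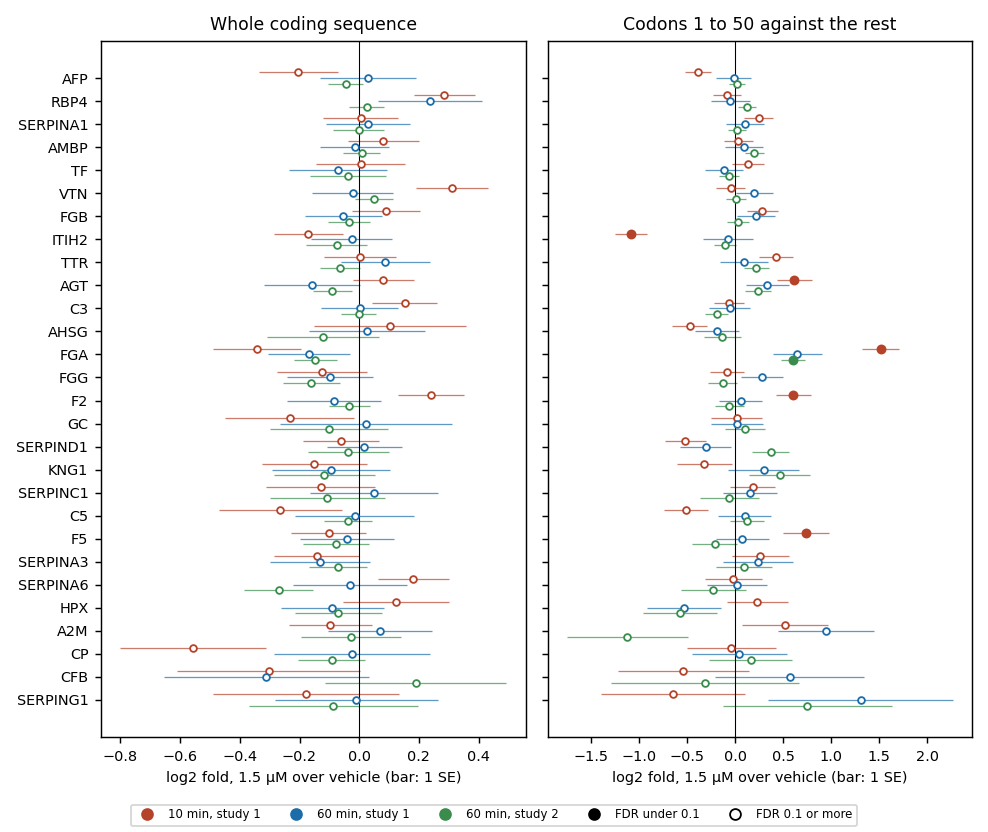
Log2 fold change of each member, 1.5 µM over vehicle, for reads of the whole coding sequence (left) and for codons 1 to 50 against the rest (right), at 10 min and 60 min of study 1 and in study 2 ribo-seq, with bars of 1 SE on either side and filled points past FDR 0.1. No point is filled on the left, while on the right FGA is filled at 10 min (1.51) and in study 2 (0.60), and F5, AGT, F2 and ITIH2 (-1.08) at 10 min.

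Within FGA the shares of 4 windows were compared, as a description. Codons 11 to 14 and 22 were themselves called higher at 10 min in these libraries, so the windows give no separate support. Codons 11 to 14 (CTAAGTGTGGTG above), inside the hydrophobic start of the chain, held 5.09 ± 0.87% of FGA footprints with 1.5 µM at 10 min and 0.230 ± 0.206% with vehicle (mean ± SD, n = 3). At 60 min they held 4.15 ± 2.26% against 0.633 ± 0.400%, in study 2 1.53 ± 0.28% against 0.238 ± 0.078% (n = 2), and in mRNA-seq 0.729% against 0.788%. Codons 15 to 22 held 5.10% against 1.08%, 3.77% against 1.88% and 2.71% against 1.20% in that order, as means. Codons 1 to 10 held 1.30% against 0.578%, 1.05% against 0.838% and 0.809% against 0.631%. Codons 23 to 50 held 5.79% against 3.97%, 5.19% against 5.76% and 4.66% against 4.36%. After codon 50, FGA had, in reads scaled to the same library total (RPM), 365 ± 36.9 with 1.5 µM at 10 min against 551 ± 147 with vehicle, 361 ± 68.0 against 427 ± 50.1 at 60 min and 447 ± 25.9 against 511 ± 37.9 in study 2.

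**Figure D4:**
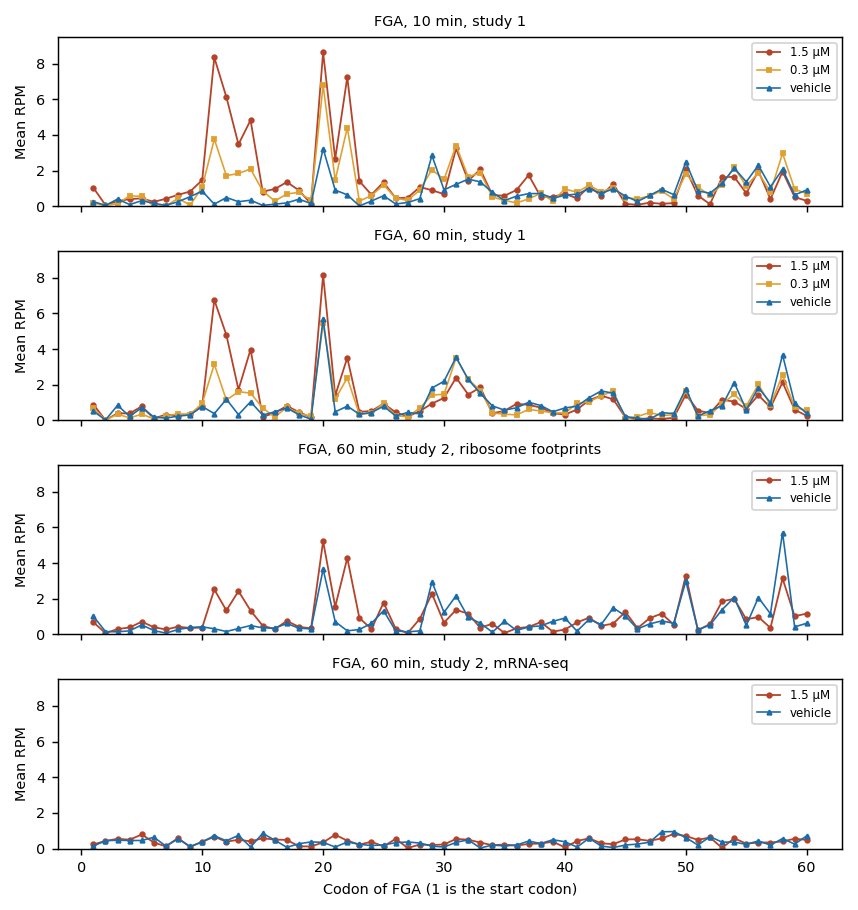
Mean RPM of each group by codon along the start of FGA, with panels for 10 min, 60 min, study 2 ribo-seq and study 2 mRNA-seq, and lines for 1.5 µM, 0.3 µM (study 1) and vehicle. In the ribo-seq panels the 1.5 µM line stands above vehicle at codons 11 to 14 (5.09% of FGA footprints against 0.230% with vehicle at 10 min), and in mRNA-seq the lines run together there (0.729% against 0.788%).

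Single codons were tested in a further edgeR fit over every codon with at least 10 reads per library on average, chosen after the data had been seen. The average ran over both groups, so a codon nearly empty in one group was tested only through the other, and had to differ. Such codons, with a mean under 10 reads in the lower group, made up 48 of the 173 higher and 228 of the 408 lower calls at 10 min, and 4 of the 10 higher calls in study 2. At 10 min, 173 of 5405 member codons passed as higher with 1.5 µM (3.20%, beside 2.97% of all codons), in 14 members, and 408 as lower (7.55%, beside 4.44%), in 16. In study 2, 10 of 5161 passed as higher (0.194%, beside 0.0928%) and 0 as lower (beside 0.049%, with 97 at an unadjusted p under 0.05, beside 2.07%). By edgeR 0 passed at 60 min (beside 0% of all codons), where 52 of 5191 were higher and 101 lower at an unadjusted p under 0.05 (beside 1.06% and 1.63% of all codons). With the replicate as a block, which pairs the libraries at that time, 6 passed as higher at 60 min (beside 0.117%) and 0 as lower (beside 0.0639%, with 231 at an unadjusted p under 0.05, beside 3.68%). These were FGA 11, RBP4 26, AMBP 26, C3 1385 and 1386 and ITIH2 315. None passed with 0.3 µM at 10 min (48 and 15 of 5968 at that p, beside 0.764% and 0.439%), 0.3 µM at 60 min (17 and 17 of 5293, beside 0.37% and 0.376%) or in mRNA-seq (26 and 70 of 5854, beside 0.597% and 1.83%), each beside 0% of all codons with or without the block, and DESeq2 was not run on single codons.

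At 10 min, higher codons numbered 34 of 803 tested in C3, 21 of 370 in VTN, 19 of 597 in TF, 19 of 181 in RBP4, 18 of 394 in SERPINA1, 13 of 360 in FGB and 11 of 305 in AMBP. They numbered 8 of 653 in ITIH2, 7 of 589 in AFP, 7 of 186 in FGA, 6 of 161 in F2, 4 of 243 in AGT, 4 of 88 in TTR and 2 of 151 in AHSG. All 7 FGA codons lay within the first 31. Lower codons were most numerous in AFP, 162 of 589 tested, and in ITIH2, 51 of 653. Single codons were scaled by the whole library, not by the reads of their gene. Counts of higher and lower codons therefore mix changes in a gene's level with changes in position. The counts at 10 min hung on single libraries. Without each in turn, the higher codons ran from 2 (without compound replicate 2, with FGA codon 11 and RBP4 codon 26 left) through 8 (compound replicate 1), 10 (vehicle replicate 2), 108 (vehicle replicate 1) and 111 (compound replicate 3) to 394 (vehicle replicate 3), beside 0.0238 to 8.08% of all codons. The lower codons ran over the same libraries through 0, 12, 23, 321, 114 and 733, beside 0.00122 to 7.81%.

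All 10 member codons higher in study 2 were also higher at 10 min in study 1, which shares no library with it. The 10 make up 100% of the study 2 calls among member codons and 5.78% of those at 10 min. Of the 10, 4 had a vehicle mean under 10 reads at 10 min (AMBP 17 and FGA 11, 13 and 22). In study 2, 4 did (C3 1386 and the same FGA codons). These were tested there only through the compound libraries and had to differ, so their overlap between studies carries no weight of its own. Over all transcripts, 132 of the 153 study 2 codons that were tested at 10 min were higher there too (86.3%). Among them were FGA 11, 13 and 22, RBP4 26, AMBP 17 and 26, and C3 906, 1386 and 1387. At 60 min of study 1, without the block, 9 of the 10 had log2 changes above 0, and AMBP 17 stood at -0.31 (0.27 with the block). Of the 10, 4 had a vehicle mean under 10 reads at 60 min (C3 906 and FGA 11, 13 and 22). These 4 were tested there only through the compound libraries and had to lie above 0, so their signs carry no weight. The study 2 count fell to 4 without vehicle replicate 4 and to 5 without vehicle replicate 5. Of the 10 codons, 2 to 10 passed at 10 min and 2 to 10 in study 2 as each library was left out, fewest without compound replicate 2 at 10 min and without vehicle replicate 4 in study 2, where each such fit leaves 1 library in a group.

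FGA codon 11 (CTA, the first of the capitals) had 0.116, 0.240 and 0 RPM with vehicle at 10 min and 7.57, 11.99 and 5.47 with 1.5 µM. At 60 min it had 0.156, 0.580 and 0.397 against 6.12, 9.87 and 4.27, and in study 2 0.0728 and 0.563 against 2.38 and 2.66. Every compound library lay above every vehicle library. The log2 changes were 5.95 (SE 0.61, edgeR adjusted p = 0.0019), 3.99 (SE 0.60, adjusted p = 0.300) and 3.15 (SE 0.65, adjusted p = 0.024). Vehicle reads were 2, 3 and 0 at 10 min, 1, 9 and 4 at 60 min, and 1 and 5 in study 2. Codon 11 was therefore tested through the compound libraries in all 3, as with 0.3 µM below, and had to differ. It passed at 10 min whichever library was left out, and lost its study 2 call without vehicle replicate 4. With the replicate block it passed at 60 min too (log2 4.06, SE 0.51, edgeR adjusted p = 0.000184). With 0.3 µM codon 11 had 2.18, 5.91 and 3.22 RPM at 10 min and 2.16, 4.03 and 3.25 at 60 min, again above every vehicle library, though neither passed (adjusted p = 1.00 each). In mRNA-seq it had 0.614 and 0.817 against 0.596 and 0.722.

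FGA codon 22, in the sequence that follows the hydrophobic start, had 4 and 1 reads with vehicle in study 2 and 54 and 56 with 1.5 µM, so it was tested there through the compound libraries. It had 0.291 and 0.113 RPM with vehicle and 4.43 and 4.14 with 1.5 µM (log2 4.22, SE 0.58, edgeR adjusted p = 4.68e-05), and passed whichever library of study 2 was left out. At 10 min codon 22 had 2, 5 and 12 vehicle reads, so it was again tested through the compound libraries and had to differ. It had 0.116, 0.400 and 1.41 RPM against 2.77, 10.9 and 8.10 (3.72, edgeR adjusted p = 0.028), a call lost without compound replicate 2 or vehicle replicate 2.

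RBP4 codon 26 (AGC) lies among 6 neighbouring capitals, codons 22 to 27. It had 5.80, 3.28 and 4.59 RPM with vehicle at 10 min and 27.5, 21.6 and 29.99 with 1.5 µM (log2 2.57, SE 0.35, edgeR adjusted p = 0.0106). In study 2 it had 3.57 and 3.94 against 10.9 and 12.2 (1.62, SE 0.31, adjusted p = 0.0113). The groups were apart in both. It passed at 10 min whichever library was left out, and lost its study 2 call without vehicle replicate 4 or vehicle replicate 5. At 60 min of study 1 it had 1.25, 7.15 and 6.74 against 18.1, 30.3 and 20.4, also apart (2.35 with the replicate block, edgeR adjusted p = 0.00669), and in mRNA-seq 7.47 and 8.62 against 6.83 and 5.71. Codon 26 of AMBP (CCC) had 18.3, 18.0 and 20.4 RPM against 52.1, 51.6 and 40.9 at 10 min (1.40, adjusted p = 0.036) and 27.7 and 35.8 against 65.6 and 67.3 in study 2 (1.06, adjusted p = 0.056).

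Codon 1386 of C3 (CTT) lies deep in the chain of the central complement component. It had 1.86, 0.561 and 0.707 RPM with vehicle at 10 min and 7.13, 2.67 and 5.68 with 1.5 µM (log2 2.27). At 60 min it had 1.09, 1.16 and 0.595 against 7.20, 4.43 and 6.31 (2.64, edgeR adjusted p = 0.460, and 0.0107 with the replicate block), and in study 2 0.364 and 0.788 against 3.45 and 3.55 (2.66, adjusted p = 0.012). The groups did not overlap in any of the 3. In study 2 codon 1386 had 5 and 7 vehicle reads, so it was tested there through the compound libraries and had to differ. Its neighbour 1387 gave log2 changes of 2.42, 1.57 and 2.08 in that order, and codon 906 gave 1.57, 1.83 and 1.48. At 60 min codon 906 had 4, 9 and 1 vehicle reads, so it was tested there through the compound libraries and had to be higher on average. At 60 min the groups of codon 906 overlapped, since compound replicate 2 had 0.286 RPM and vehicle replicate 1 had 0.624, and neither codon passed with the block (edgeR adjusted p = 0.436 for 1387 and 0.696 for 906).

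**Figure D5:**
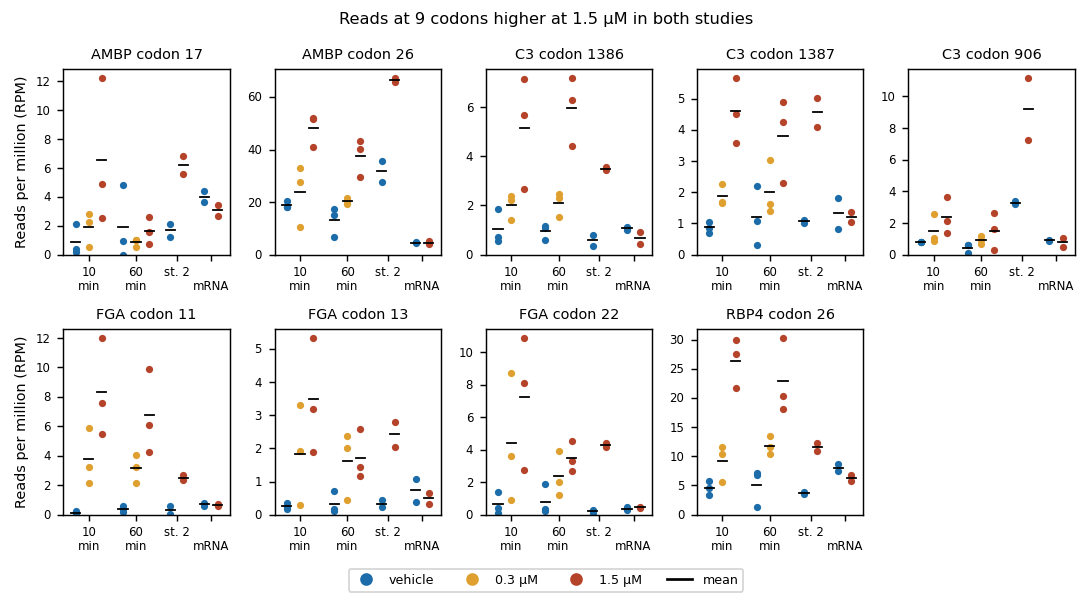
Reads (RPM) at 9 member codons higher at 1.5 µM in both studies, with a panel per codon, a point per library and a line at each group mean, for vehicle, 0.3 µM (study 1) and 1.5 µM at 10 min, 60 min, study 2 ribo-seq ("st. 2") and study 2 mRNA-seq. FGA codon 11 goes from at most 0.580 RPM with vehicle to at least 2.38 with 1.5 µM in ribo-seq, and mRNA-seq shows no such gap (0.614 and 0.817 against 0.596 and 0.722).

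By Dmax, the largest gap between the cumulative read curves of the compound and vehicle along a coding sequence, scored within bins of similarly read transcripts on pooled replicates, 0 of 28 members reached a Z-score of 2 in any 1.5 µM comparison. Over all transcripts 3.56% did at 10 min, 2.72% at 60 min and 2.27% in study 2. The members' median Z-scores were 0.492, 0.703 and 0.683, and those of all transcripts 0.735, 0.778 and 0.768. FGA scored 1.68 at 10 min, with the gap widest at codon 74, 0.897 at 60 min and 0.999 in study 2. SERPING1 scored 1.76 in study 2 on a very low count. Dmax pools replicates, so no test over libraries goes with it.

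Most members had a leucine-rich start, which the rule did not use. Over codons 2 to 30, leucine codons made up a median of 20.7% in the 26 members with a matched coding sequence and 10.3% in all 9859 transcripts, and 23 of the 26 lay above the median of all. After codon 50 the medians were 9.10% and 9.82%. C3, A2M and SERPING1 had the most, 31.0%. FGA, F5 and ITIH2 had the least, 10.3%, the same as the median of all. These 3 were called on codons 1 to 50 at 10 min, FGA and F5 as higher and ITIH2 as lower. F2, at 24.1%, and AGT, which had no matched sequence, were called there as higher. Whether leucine content goes with these calls was not tested.

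The densest codon of each member without compound was also read, as a description. A densest codon exceeds the mean in any transcript, and the values over all transcripts were not read. With the last 2 codons left out, the densest codon held 5.37 to 17.8 times the mean of its coding sequence in the vehicle libraries of study 1 (median 7.97). These codons were chosen in those libraries, and in study 2 vehicle ribo-seq they held a median of 5.19 times the mean (0 to 21.7) and in its mRNA-seq a median of 0.797 times (up to 8.53). The chosen codon was itself the densest in 0 (SERPING1, AGT and KNG1) to 5 (RBP4) of the single vehicle libraries of study 1. That of SERPING1 stood at 0.0928 RPM there, at 0 times the mean in study 2 ribo-seq and at 8.53 times in mRNA-seq. The codon before the stop was denser than the chosen codon in 11 members and reached 21.8 times the mean in AHSG. In 4 of the 28 members the densest codon was the same in study 2: RBP4 164 (11.7 and 19.1 times), C3 468 (12.7 and 21.7), VTN 184 (9.60 and 9.15) and AMBP 186 (8.01 and 6.86). These 4 are printed with the densest codon in capitals, from RBP4 exon 5 (chr10:93593893-93593922), C3 exon 12 (chr19:6711056-6711085), VTN exons 3 and 4 (chr17:28369400-28369507) and AMBP exons 5 and 6 (chr9:114069738-114072946), all on the minus strand of GRCh38.
RBP4 codons 157 to 166: cgggaccccaacggcctgcccCCAgaagcg
C3 codons 461 to 470: ctacgtacagagctcagacccGGGgagacc
VTN codons 177 to 186: gggcagtactgctatgaactgGACgaaaag
AMBP codons 179 to 188: atcttcaccatggctgaccgaGGTgaatgt

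Other plasma proteins, from a list of 50 secreted liver proteins outside the members, were read in the same fits. Of the 33 in the tables, 29 to 33 were tested per comparison, and 0 passed in any of the 9 by edgeR (beside 0 to 0.851% of all transcripts). At an unadjusted p under 0.05 there were 0 to 3 (beside 0.871 to 17.7%). DESeq2 called 1 of them at 10 min (beside 4.31% of all transcripts) and 0 in the other 8 (beside 0 to 0.357%). On codons 1 to 50, CFI, a complement protease, rose at 60 min (log2 1.28, SE 0.25, edgeR adjusted p = 0.0127, beside 0.282% of all transcripts called). It also rose in study 2 (0.99, SE 0.16, adjusted p = 7.67e-06, beside 0.447%), and stood at 0.61 (adjusted p = 0.101) at 10 min (beside 4.15%). At an unadjusted p under 0.05 the list had 5 of 29 at 10 min (beside 15.3%), 1 of 29 at 60 min (beside 4.33%) and 3 of 30 in study 2 (beside 5.44%). No other gene of that list passed on codons 1 to 50 in these comparisons, at 0.3 µM, in mRNA-seq or between the times.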

How the data were processed

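Per the labels and the study's methods, the authors removed adapters with Fast-X, discarded ribosomal RNA reads, and aligned the rest with Bowtie 1.1.2 to the most abundant isoform of each gene (Kallisto 0.42.5, Ensembl release 78, GRCh38), keeping best alignments at 5 or fewer sites, so reads of close paralogs can count on several genes. The deposited values are raw counts of reads per codon, placed at the inferred ribosomal P site. The authors' Python scripts were not used.

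Reads were summed per transcript and tested with edgeR 4.0.16 (quasi-likelihood, filterByExpr, TMM, Benjamini-Hochberg over all transcripts, FDR 0.1) in R 4.3.3 with limma 3.58.1, with DESeq2 1.42.0 as an alternative, and codons were handled in Python 3.11.15 (numpy 2.4.6, pandas 2.3.3, scipy 1.17.1). TE and time differences were interaction terms. The paper states that each sample of study 2 gave both ribo-seq and mRNA-seq libraries, and the TE fit did not pair the 2 assays of a sample. For codons 1 to 50, each library gave 2 columns, each scaled by its own total, over transcripts of at least 100 codons. Z-scores of Dmax used bins of 300 transcripts with at least 10 reads. The edgeR fits of whole coding sequences, codons 1 to 50, TE and single codons were tested on simulated data, but not in every comparison. The fits with the replicate block and those of DESeq2 were not tested so. The simulated libraries were independent and had a fixed spread, so they do not bear on how the calls hung on single libraries. Intervals are 2 SE on either side.

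The members and lists were chosen with earlier results of these data known, and the single-codon fits, with and without the replicate block, and the fits of codons 1 to 50 at 0.3 µM, in mRNA-seq and between times were added after seeing the data. Named with values in each library were the 5 densest members, those past the FDR, and the extremes of each 1.5 µM comparison among members with 50 reads or more. Gene names were matched for 11270 of the 12325 transcripts and coding sequences in GENCODE release 44 for 10354, among them 26 of the 28 members (not CFB or AGT). The study calls its replicates biological, but how cultures were kept apart is not given in the sources used here, so p-values measure the spread between these libraries. Replicate numbers were checked over 9690 transcripts by the correlation of same-numbered deviations from the group means: they paired 1.5 µM with vehicle at 60 min (0.413 to 0.537) and 0.3 µM with vehicle at both times (0.154 to 0.555 and 0.437 to 0.566). The values of 1 codon called in both studies are not reported here. Depth is given with the samples above.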

Additional observations from a re-analysis of the deposited data

How the results depend on the processing

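The main settings were kept as fixed, and each alternative changed 1 choice. Of the comparisons' values under alternatives, 171 kept to within 1.5 times or the replicate spread and 40 moved. Of the single genes' values, 96 stayed on their side of the threshold, 8 gained and 20 lost the call, and 0 changed direction. On whole coding sequences DESeq2, DESeq2 size factors, no filter, reads after codon 50 and all 18 libraries in 1 fit called 0 members wherever they were run. At 10 min, same-numbered libraries deviated together only weakly (correlations 0.065 to 0.244) and were not treated as paired. The replicate block there called 3 members on whole coding sequences (VTN higher, FGA and CP lower, beside 10.8% of all transcripts). In study 2, with 2 libraries a group (0.302), it called 2 (FGG and FGA lower, beside 1.15%). For codons 1 to 50 at 10 min, an FDR of 0.05 left 2 members (beside 2.1% of all), a library size shared by both columns called 8 (beside 9.11%) and the replicate block called 3 (F5 and F2 lost, beside 3.34%). Codons 1 to 30 called 6 there (beside 3.99%), losing F5 and F2 and adding AMBP as higher and AFP and C5 as lower. At 60 min, codons 1 to 30 called 1 and the replicate block 1 (FGA in both, beside 0.275% and 0.953%), and in study 2 codons 1 to 30 called 2 (FGA and AMBP, beside 0.371%). The replicate block changed no other count of members. At an FDR of 0.05, 56 single codons were higher at 10 min (beside 0.926% of all) and 176 lower (beside 1.51%). The block called 6 higher codons at 60 min, and 16 higher and 2 lower in study 2 (beside 0.19% and 0.105%). The members' median share of reads on codons 1 to 50 was 7.09%, and 3.22% for codons 1 to 30, which are fewer codons.

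Without each library in turn, whole coding sequences gave 0 to 6 calls at 10 min and 0 to 2 in study 2 ribo-seq, codons 1 to 50 gave 2 to 7, 0 to 1 and 0 to 1 at 10 min, 60 min and in study 2, and single codons gave 2 to 394 higher and 0 to 733 lower at 10 min and 4 to 11 higher and 0 to 8 lower in study 2. The members' median TE was 1.24 to 1.28. The causes were not tested. Depth was least for CFB, with 12 to 91 ribo-seq reads in a study 1 library, and SERPING1, with 17 to 130.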
